A study of Mus musculus with 24 samples.

Results

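Ribosome-protected fragments (footprints, RP) were compared between 1 h of restimulation and 0 h in mouse Th1 effector cells, the CD4+ T cells that secrete interferon gamma. The comparison holds 2 libraries at 1 h and 2 at 0 h, taken by their labels from the 24 libraries of the series and paired by replicate number (pair 1 and pair 2). The cells came from the DO11.10 strain, a mouse line with a transgenic T cell receptor, and had been isolated from the periphery with beads against CD4. For restimulation they received anti-CD3 at 1 µg/ml and anti-CD28 at 2.5 µg/ml over a plate coated with an antibody against hamster immunoglobulin, which mimics antigen and costimulation. Of the 9420 genes in the deposited table, the 9268 with a mean of at least 1 FPKM over the 4 libraries were tested. FPKM is a fragment count divided by the length of the gene and by the size of the library, so a level is relative to the rest of its library, and fewer cells of a type and less RNA per cell cannot be told apart. A change is the difference in log2(FPKM + 1) between 1 h and 0 h, with its standard error (SE) from the fit, and a gene was called where limma gave an adjusted p below 0.05. The labels give no age or sex of the animals and are silent on whether the replicates are separate animals or cultures. A p-value therefore covers the spread among these libraries, which may be technical.

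Ribosome profiling sequences the short stretches of mRNA that a ribosome shields from nuclease, and the footprints on a gene follow both the amount of its mRNA and how densely ribosomes load it. Engagement of the T cell receptor and CD28 activates calcium, MAP kinase and NF-kB signals, which switch on immediate early genes from factors already present in the cell and then cytokine genes. The same signals activate the kinase mTOR, which is known to favour translation of mRNAs that begin with a run of pyrimidines (terminal oligopyrimidine, or TOP, mRNAs), a class that holds the ribosomal proteins and elongation factors. They also engage SREBP, the transcription factor family of sterol and fatty acid synthesis.

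The inferred depth of the 4 libraries ran from 8.88 to 23.1 M reads, with the lowest value in 0 h replicate 2. Replicates correlated across genes at Pearson r of 0.958 at 0 h and 0.962 at 1 h, and 639 and 571 genes lay 2-fold or more apart between them. The 7 measured CD4 T cell markers, among them the CD3 chains and Cd4, summed to 10510 and 8067 FPKM at 0 h and to 9511 and 7688 FPKM at 1 h in replicates 1 and 2, and limma called 0 of them, with 0 at an unadjusted p below 0.05. The 6 CD8 T cell markers summed to 1070 and 100.2 FPKM at 0 h and to 943 and 94.9 FPKM at 1 h, far higher in replicate 1 at both times, with 0 called by limma and 1 at an unadjusted p below 0.05. The gap was uneven over these markers and widest for the granzyme Gzma. At 0 h, on 20.3 and 8.88 M reads, Gzma had an inferred 12201 and 94 reads, Cd8a 1779 and 234 and Eomes 93 and 34. The 8 Th1 markers, among them Ifng, summed to 1260 and 959 FPKM at 0 h and to 7101 and 1910 FPKM at 1 h. Markers of other T cell types were present at 0 h too. The 5 regulatory T cell markers in the table, among them Il2ra, summed to 1162 and 1067 FPKM. The 6 follicular helper markers, among them Icos, summed to 1210 and 631 FPKM and the 7 Th2 markers to 147 and 210 FPKM. The 3 Th17 markers in the table summed to 9.04 and 1.30 FPKM, and the 2 NK cell markers to 124 and 152 FPKM. The 5 dendritic cell markers in the table summed to 786 and 447 FPKM at 0 h and 716 and 408 FPKM at 1 h, and the 5 B cell markers to 65.6 and 17.2 FPKM and then 44.0 and 16.5 FPKM, both higher in replicate 1. Of the 7 macrophage and monocyte markers 2 were in the table, at a sum of 98.2 and 82.3 FPKM and then 102 and 90.4 FPKM, and of the 4 erythroid markers 0. The part of these other cells in the results was not tested. Many genes below are given with the values of both replicates, and others only by the mean change over both pairs.

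At 1 h, 183 of the 9268 genes were called (1.97%), 132 higher (1.42%) and 51 lower (0.550%). Of the 132 rises 122 were at least 2-fold and 46 at least 4-fold higher on the log2(FPKM + 1) scale, against 36 and 1 of the 51 lower. Both 1 h libraries lay above both 0 h libraries for 125 of the 132 genes called higher, a pattern that 17.1% of all tested genes showed, and below both for 46 of the 51 called lower, which 25.3% of all genes showed. Pair 1 moved further than pair 2 in 108 of the 132 and in 45 of the 51, with a median change of the genes called higher of 1.95 in pair 1 and 1.49 in pair 2. Without the replicate block the fit called 13 genes (0.140%), all higher, and with the 4 libraries alone and the block it called 708 higher (7.64%) and 823 lower (8.88%). Leaving out RP 0 h replicate 1 left 65 calls, RP 1 h replicate 1 95, RP 1 h replicate 2 168 and RP 0 h replicate 2 267, and 51 of the genes called higher and 3 of those called lower were called in each of these 4 fits. At an unadjusted p below 0.05 stood 2065 genes (22.3%).

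**Figure D1:**
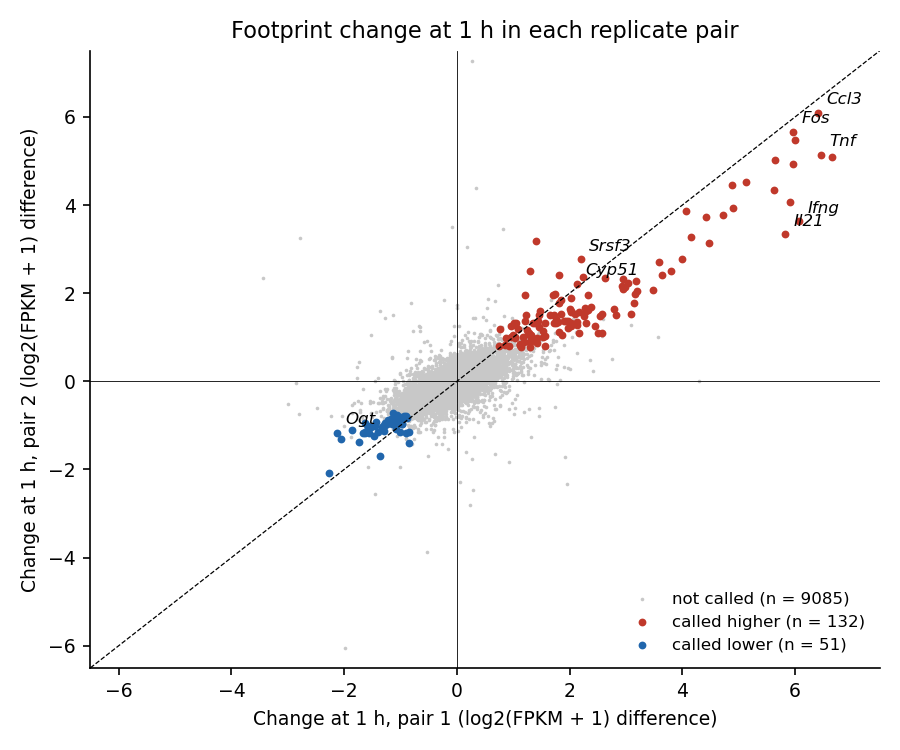
Change of footprints from 0 h to 1 h in pair 1 (horizontal) and pair 2 (vertical), each as a difference in log2(FPKM + 1), with 1 point per gene, the 132 genes called higher in red, the 51 called lower in blue and a dashed line where the pairs are equal. Most red points lie right of the line, since pair 1 moved further in 108 of the 132.

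Of the 22 immediate early transcription factors tested 13 were called higher, with a median change of 2.26 against -0.04 for all genes. These genes are read within minutes of a receptor signal. Fos (ENSMUSG00000021250, GRCm38 chr12:85473890-85477273), the partner of Jun in the AP-1 factor, went from 2.84 and 3.64 FPKM (replicates 1 and 2, in this order throughout) to 238 and 234 FPKM, a change of 5.81 ± 0.28 SE (limma, adjusted p = 0.000738). Its replicates were closely matched at each time and the groups lay far apart. Fosb, a relative of Fos, stood at 0.10 and 0.55 and then at 16.4 and 9.55 FPKM (3.38 ± 0.30 SE), on an inferred 2 and 5 reads at 0 h.

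Of the zinc finger factors of the Egr family, which switch on cytokine and feedback genes in T cells, 3 were called. Egr1 went from 8.73 and 9.53 to 477 and 214 FPKM, a change of 4.98 ± 0.40 SE (limma, adjusted p = 0.00389). Egr2 (chr10:67535475-67542188) went from 3.26 and 2.38 to 211 and 109 FPKM (5.33 ± 0.42 SE, adjusted p = 0.00364) and Egr3 from 4.19 and 1.83 to 179.7 and 63.8 FPKM (4.82 ± 0.50 SE, adjusted p = 0.00866). In all 3 genes the 1 h library of replicate 1 was the higher one, and both 1 h libraries lay well above both at 0 h. The orphan nuclear receptors of the Nr4a family, whose level follows the strength of the receptor signal, rose as a family as well. Nr4a1 (Nur77) went from 8.96 and 12.7 to 616 and 418 FPKM (5.45 ± 0.36 SE, adjusted p = 0.00203 with limma). Nr4a2 went from 0.16 and 0.25 to 23.8 and 15.5 FPKM (4.07 ± 0.30 SE) and Nr4a3 from 1.67 and 1.65 to 69.1 and 34.97 FPKM (4.24 ± 0.37 SE). None of these 3 receptors overlapped between the times.

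The other called members were Ier2 (2.03 ± 0.20 SE), Ier3 (2.52 ± 0.36 SE), Fosl2 (2.48 ± 0.28 SE), Maff (2.55 ± 0.31 SE) and Atf3 (1.86 ± 0.19 SE). Members of the same list that did not pass were Junb, at 231 and 184 and then 966 and 494 FPKM (limma, adjusted p = 0.0572), Srf (adjusted p = 0.0697), Jund (adjusted p = 0.126) and Jun (adjusted p = 0.308), whose groups overlapped. Klf6, a Krüppel-like factor that was already abundant, had 204 and 199 and then 169.8 and 169 FPKM (limma, adjusted p = 0.606). Of the 13 calls, 12 were kept in each fit that left out 1 library, and Ier3 had an adjusted p of 0.0805 without RP 0 h replicate 1. Without the block 7 of the 22 were called.

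The promoters of called genes were read for short motifs, since immediate early genes are known targets of SRF, which binds the CArG box, and of CREB, which binds sites with TGACG. A CArG box (CC, 6 letters A or T, GG) was present in the promoters of 4 of 97 genes called higher that had an entry (4.12%) and of 109 of 7444 tested genes (1.46%), in a window from 250 bases before to 50 after each RefSeq start, on either strand. The 4 genes were Egr2, Dusp5, Zfp36 and Fhl2, and the boxes of the first 3, which the text describes, are shown with 10 bases on each side, 5′ to 3′ on the strand of the gene, with the box in capitals (RefSeq, GRCm38.p6). The Egr2 boxes lie at chr10:67537484-67537513 and chr10:67537787-67537816 (plus strand), those of Dusp5 at chr19:53529053-53529082 and chr19:53529063-53529092 (plus strand), and that of Zfp36 at chr7:28379267-28379296 (minus strand).
Egr2 first box: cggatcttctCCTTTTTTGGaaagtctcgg
Egr2 second box: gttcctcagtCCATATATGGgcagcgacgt
Dusp5 first box: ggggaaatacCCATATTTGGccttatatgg
Dusp5 second box: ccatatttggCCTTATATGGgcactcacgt
Zfp36 box: ccaggccgccCCATAAAAGGagaaagctcc
The 2 boxes of Dusp5 follow each other directly. The lower-case end of its first line is the second box, and the lower-case start of its second line is the first box. TGACG was found in 48 of the 97 promoters (49.5%) and in 2862 of the 7444 (38.4%), against 17 of 39 genes called lower (43.6%). Of the 10 promoters of called immediate early factors with an entry, 8 held TGACG (80.0%), 1 a CArG box (10.0%) and 0 the AP-1 site TGANTCA. That AP-1 site was found in 11 of the 97 (11.3%) and in 5.55% of the 7444, and a broad NF-kB pattern in 75.3% and 72.7%. A match is a stretch of letters and not a measured binding site.

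Effector cytokines rose next to these factors, with 14 of 21 tested members called higher and a median change of 2.16. Ifng (chr10:118441046-118445892), the interferon that defines Th1 cells, went from 91.9 and 93.98 to 6259 and 1172 FPKM, a change of 4.85 ± 0.53 SE (limma, adjusted p = 0.0101). The replicates were alike at rest, and at 1 h replicate 1 was several times higher than replicate 2. Tnf (chr17:35199381-35202007), an inflammatory cytokine, went from 31.7 and 19.1 to 2887 and 707 FPKM, a change of 5.80 ± 0.30 SE (adjusted p = 0.000883 with limma). The change of Tnf was 6.46 in pair 1 and 5.14 in pair 2, and that of Ifng 6.07 and 3.63.

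Il10, which restrains inflammation, and Il21, which helps B cells, differed most between replicates. Il10 went from 36.3 and 6.29 to 2255 and 121 FPKM (4.99 ± 0.41 SE, limma adjusted p = 0.00429). Il21 went from 13.5 and 2.43 to 817 and 33.7 FPKM (4.58 ± 0.52 SE, limma adjusted p = 0.0119). Both genes were higher in replicate 1 before and after the stimulus, and the 1 h library of replicate 2 still exceeded both 0 h libraries. Without the block their adjusted p was 0.385 and 0.429.

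The growth factors of blood cells had hardly any footprints at rest. Il3 was listed at 0 in both 0 h libraries and stood at 99.1 and 33.1 FPKM at 1 h (limma, adjusted p = 0.00116). Its neighbour Csf2, which encodes GM-CSF, went from 0.12 and 0.79 to 32.4 and 26.3 FPKM (4.42 ± 0.25 SE, adjusted p = 0.00109 with limma), on an inferred 1 and 3 reads at 0 h and 317 and 199 at 1 h. Lif, a cytokine of the interleukin 6 family, went from 1.13 and 3.86 to 36.9 and 46.1 FPKM (3.71 ± 0.32 SE). Il2, the growth factor of T cells themselves, was still low at 1 h. It stood at 0 and 0.88 FPKM and then at 3.48 and 4.61 FPKM (1.87 ± 0.19 SE, limma adjusted p = 0.00866), on an inferred 41 and 42 reads at 1 h. It reached 124 and 161 FPKM at 4 h. Il4 and Il13, cytokines of Th2 cells, stood at 14.03 and 3.18 FPKM and 11.7 and 3.54 FPKM at 1 h, from 0.35 and 0 and 0.50 and 0.57 FPKM (2.77 ± 0.31 SE and 2.31 ± 0.36 SE).

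Among the cytokines held on the cell surface, Tnfsf14 (LIGHT) went from 1.44 and 0.78 to 70.7 and 37.96 FPKM (4.66 ± 0.29 SE, limma adjusted p = 0.00178). Cd40lg, the signal to B cells and macrophages, went from 64.05 and 108 to 461 and 306 FPKM (2.16 ± 0.30 SE, adjusted p = 0.0238 with limma), and Fasl, which triggers death of target cells, from 7.63 and 18.1 to 40.8 and 59.2 FPKM (1.97 ± 0.19 SE). Tnfsf11 (RANKL) rose less, by 1.01 ± 0.15 SE. Of the 14 calls 11 were kept in each fit without 1 library. Without RP 0 h replicate 1 the adjusted p was 0.116 for Il13 and 0.0752 for Cd40lg, and Tnfsf11 ranged from 0.0621 to 0.244 over the 4 fits. Without the block Il3, Csf2 and Tnfsf14 were called.

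Chemokines, which draw other leukocytes, had 4 of 7 tested members called higher, with a median of 3.15. Ccl3 (chr11:83647844-83649355) had the largest change of all genes, from 6.76 and 0.81 to 654 and 123 FPKM (6.25 ± 0.26 SE, limma adjusted p = 0.000648). The related Ccl4 went from 86.9 and 17.9 to 5629 and 839.9 FPKM (5.74 ± 0.26 SE, adjusted p = 0.000648 with limma). Both genes were several times higher in replicate 1 than in replicate 2 at each time, while the change within pairs was close. Xcl1, which attracts dendritic cells, differed from them in having like levels in both replicates, at 0.57 and 0.66 and then 25.4 and 23.3 FPKM (3.97 ± 0.28 SE). Ccl1, a ligand of Ccr8, went from 0.87 and 0 to 21.4 and 5.57 FPKM (3.15 ± 0.22 SE). All 4 calls were kept in each fit without 1 library, and Xcl1 was the 1 called without the block.

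**Figure D2:**
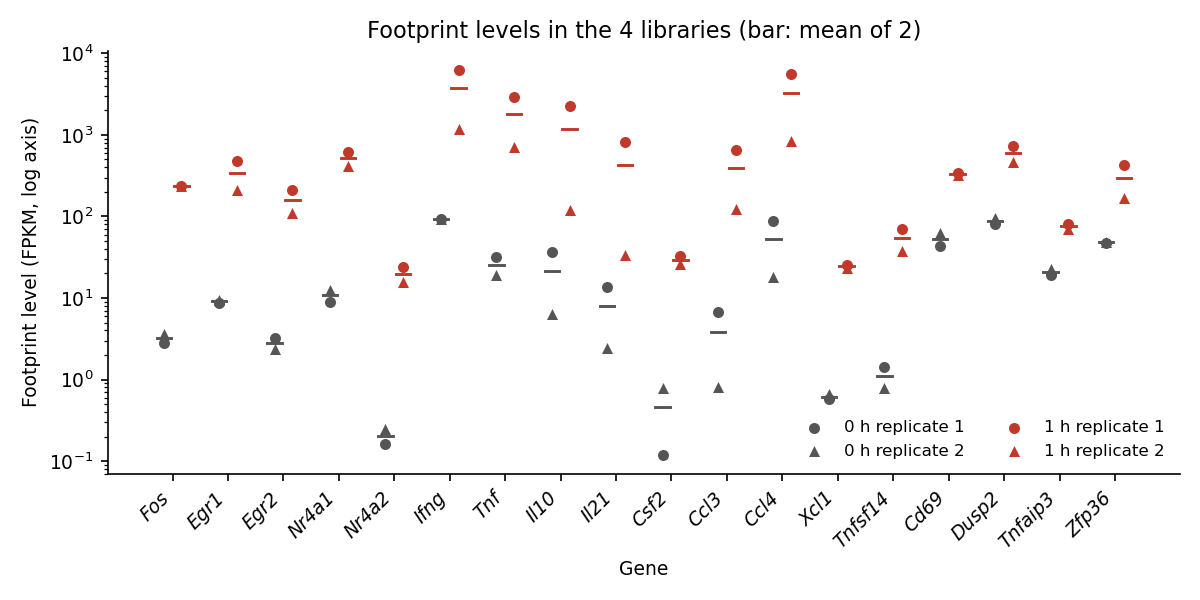
Footprint level (FPKM, log axis) of 18 induced genes in the 4 libraries, with 0 h in grey, 1 h in red, circles for replicate 1, triangles for replicate 2 and a bar at the mean of 2. For each gene shown both 1 h libraries lie above both 0 h libraries, and the spread between the 1 h replicates is small for Fos (238 and 234) and wide for Il21 (817 and 33.7).

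Receptors were called in small numbers, beside 1.42% of all genes called higher. Cd69, a surface marker of recent activation that holds T cells in tissue, went from 43.9 and 63.1 to 345 and 318 FPKM (2.63 ± 0.28 SE, limma adjusted p = 0.00915). Together with Tnfrsf4 (OX40, 0.97 ± 0.16 SE) it made 2 of 15 activation and costimulatory receptors called higher, and Cd69 was the one kept without each library in turn. For Tnfrsf4 the adjusted p without 1 library ran from 0.0675 to 0.396. Il2ra, the alpha chain of the interleukin 2 receptor, stood at 617 and 606 and then at 1061 and 845 FPKM (adjusted p = 0.169 with limma), and Icos at 715 and 314 and 594 and 372 FPKM. Of the 9 inhibitory receptors 2 were called higher, Pdcd1 (PD-1), from 23.6 and 15.04 to 95.2 and 36.2 FPKM (1.59 ± 0.25 SE), and Havcr2 (TIM-3, 0.86 ± 0.15 SE). Their highest adjusted p without 1 library was 0.133 and 0.398. Of the 14 chemokine and homing receptors 1 was called, Ccr8 (1.90 ± 0.30 SE), with an adjusted p of 0.0603 without RP 0 h replicate 2.

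Of the 19 inhibitors of receptor signalling 9 were called higher, with a median of 1.17. The phosphatase Dusp2, which inactivates MAP kinases in the nucleus, went from 80.1 and 96.8 to 733 and 469.8 FPKM (2.72 ± 0.24 SE, limma adjusted p = 0.00527). Dusp5, another MAP kinase phosphatase, went from 51.9 and 71.7 to 210.4 and 226 FPKM (1.82 ± 0.17 SE). Rgs16, which shuts off G protein signals from chemokine receptors, went from 5.38 and 3.72 to 87.3 and 25.8 FPKM (3.15 ± 0.30 SE). Cish, a SOCS family inhibitor of cytokine signalling, went from 21.03 and 14.7 to 273 and 83.1 FPKM (3.03 ± 0.36 SE, adjusted p = 0.0153 with limma). These 4 genes were called in each fit without 1 library. The 5 others, Spry1, Dusp1, Dusp4, Rgs1 and Rgs2, each lost the call in at least 1 such fit, with a highest adjusted p from 0.0608 for Spry1 to 0.133 for Rgs2.

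Of the NF-kB pathway 4 of 20 members were called higher, with a median of 0.34, and 3 of the 4 are known as its inhibitors or modulators. Nfkbid, an atypical inhibitor of the pathway, went from 10.8 and 7.54 to 260.2 and 73.7 FPKM (3.80 ± 0.29 SE, limma adjusted p = 0.00332). Tnfaip3 (A20), a ubiquitin editor that ends the signal, went from 19.3 and 22.6 to 81.8 and 70.3 FPKM (1.81 ± 0.16 SE, adjusted p = 0.00561 with limma). Nfkbia, the main inhibitor that holds NF-kB in the cytoplasm, went from 191 and 129 to 649.8 and 325 FPKM (1.54 ± 0.22 SE, adjusted p = 0.0251 with limma). The fourth gene was the adhesion molecule Icam1 (1.09 ± 0.19 SE), a target of the pathway. Nfkbia and Icam1 had an adjusted p of 0.117 and 0.215 without RP 0 h replicate 1, and of 0.154 and 0.395 without RP 1 h replicate 1. Zfp36 (tristetraprolin), which speeds the decay of cytokine mRNAs, was the 1 called among 15 mRNA decay factors. It went from 47.4 and 49.2 to 429 and 169.8 FPKM (2.46 ± 0.30 SE, limma adjusted p = 0.0171), and was called without each library in turn.

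Of 16 transcription factors of T cell growth and fate 2 were called higher. Myc, which drives growth, went from 87.2 and 62.9 to 353 and 159 FPKM (1.66 ± 0.27 SE, limma adjusted p = 0.0355), and Irf8, an interferon regulatory factor, from 64.1 and 67.1 to 264 and 163 FPKM (1.64 ± 0.22 SE, adjusted p = 0.0227 with limma). Of the 4 fits without 1 library, Myc kept its call in 1 and Irf8 in 2. The change ran from 1.21 to 2.12 for Myc and from 1.29 to 2.00 for Irf8 over these fits. Irf4, which scales with receptor signal strength, stood at 149.7 and 246 and then at 359 and 291 FPKM (adjusted p = 0.159 with limma). The Th1 factor Tbx21 stood at 149.7 and 113 and then at 276 and 156 FPKM (limma, adjusted p = 0.105). Its relative Eomes stood at 2.15 and 1.80 and 1.70 and 1.65 FPKM.

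The translation machinery itself gained footprints in several members. Of 46 ribosomal proteins 45 had a positive change and 7 were called higher, with a median of 0.99, and of 17 other TOP mRNAs 17 had a positive change and 6 were called, with a median of 0.91. Both 1 h libraries lay above both 0 h libraries for 33 of the 46 and 16 of the 17, against 17.1% of all tested genes. The calls depended on the fit: with the 4 libraries alone 36 and 14 were called higher (7.64% of all tested genes), and without the block 0 and 0. The near-identical copies of ribosomal protein genes elsewhere in the genome leave their counts uncertain.

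Among the ribosomal proteins Rpl7a went from 27.6 and 56.2 to 96.5 and 152 FPKM (1.60 ± 0.16 SE, limma adjusted p = 0.0078), and was the 1 of the 7 called without each library in turn. Rps10 went from 46.6 and 60.8 to 269 and 130.4 FPKM (1.80 ± 0.31 SE). Rpl7a was higher in replicate 2 at both times, and Rps10 at 1 h in replicate 1. Calls were also made for Rps3a1 (1.56 ± 0.27 SE), Rpl37 (1.20 ± 0.20 SE), Rpl14 (1.15 ± 0.19 SE) and Rps19 (1.02 ± 0.15 SE). Eef1a1 (chr9:78478449-78489151), the elongation factor that brings aminoacyl-tRNA to the ribosome, was among the most abundant, at 875 and 1253 FPKM and then at 3830.2 and 3049 FPKM (1.71 ± 0.29 SE, limma adjusted p = 0.0413). Eef2, which moves the ribosome along, went from 442 and 446 to 1215 and 1054 FPKM (1.35 ± 0.19 SE, limma adjusted p = 0.0266), and its replicates were closely matched. Eef1b2 (1.51 ± 0.23 SE), Eef1g (1.09 ± 0.14 SE), the initiation factor subunit Eif3f (1.17 ± 0.17 SE) and the poly(A)-binding protein Pabpc1 (0.97 ± 0.17 SE) were the others called. None of these 6 was called without each library in turn, and without RP 0 h replicate 1 their adjusted p ran from 0.131 to 0.293.

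The TOP class is defined by the first bases of the mRNA, so the promoter windows were searched for pyrimidine runs. A run of at least 8 pyrimidines within 50 bases of the start was present for 35 of 45 ribosomal protein and other TOP genes with an entry (77.8%), against 2665 of 7444 tested genes (35.8%) and 37 of 97 genes called higher (38.1%). A run of at least 5 pyrimidines that begins with C at the annotated start itself was present for 22.2% of the 45 and for 2.73% of the 7444. The 5 longest runs in these windows among the called ribosomal protein and other TOP genes are shown in 30 bases, 5′ to 3′ on the strand of the gene, with the run in capitals (RefSeq, GRCm38.p6). They lie at chr2:26910789-26910818 (Rpl7a, plus strand), chr7:108934404-108934433 (Eif3f, plus strand), chr9:120571501-120571530 (Rpl14, plus strand), chr17:27635226-27635255 (Rps10, minus strand) and chr7:24884623-24884652 (Rps19, plus strand).
Rpl7a: acaaTTCCCTCTTCTTTCTTTCTCCagcag
Eif3f: ttctaggCTCTCTCTCTTTCTCggcaagat
Rpl14: agggcgggCCCTCTCTCTTCTCgctgagcg
Rps10: cgcgcacgCCCCTTCCTTTCCagcctccgc
Rps19: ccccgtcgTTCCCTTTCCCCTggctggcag
The run of Rpl7a, the ribosomal protein whose call held without each library, is 21 bases long, and those of Eif3f, Rpl14, Rps10 and Rps19 are 15, 14, 13 and 13 bases. Counted from the annotated start as 0, the runs begin at -14 for Rpl7a, -4 for Eif3f, -8 for Rpl14 and -3 for Rps10 and span the start. The run of Rps19 begins at -45 and lies wholly before the start, outside the annotated mRNA.

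Other lists of growth genes held few or no calls. Limma called 0 of 44 ribosome biogenesis genes, although 42 had a positive change, with a median of 0.50 and 26 at an unadjusted p below 0.05. It called 0 of 26 initiation factors (median 0.27, 9 at an unadjusted p below 0.05) and 0 of 20 aminoacyl-tRNA synthetases (median 0.29, 4 at an unadjusted p below 0.05). In the fit of the 4 libraries alone 24, 8 and 4 of these lists were called higher, against 7.64% of all tested genes. An unadjusted p below 0.05 in the main fit was reached by 22.3% of all tested genes. From 1 h to 4 h, where 17.0% of all genes were called higher, 39 of the 44 ribosome biogenesis genes were. Single genes of growth metabolism were called at 1 h: the polyamine enzymes Odc1 (1.14 ± 0.17 SE) and Srm (0.92 ± 0.14 SE), the arginine transporter Slc7a1, from 38.3 and 34.95 to 79.1 and 85.8 FPKM (1.15 ± 0.15 SE), and Aldh18a1 of proline synthesis (0.77 ± 0.14 SE). Each lost its call in at least 2 of the 4 fits without 1 library. Limma called 0 of 12 glycolysis, 23 oxidative phosphorylation, 24 proteasome, 24 S phase and 22 mitosis genes, with 1, 1, 0, 2 and 3 at an unadjusted p below 0.05. The glycolysis list had a median of 0.14, and its largest change was 1.80 for the hexokinase Hk2. That gene changed by 2.57 in pair 1 and 1.04 in pair 2 (limma, adjusted p = 0.0604). The most abundant members of these lists gave values without a call. Ncl, a nucleolar protein of ribosome biogenesis, had 345 and 652 FPKM and then 685 and 710 FPKM (0.55 ± 0.37 SE), and Eif5a had 1509 and 2308 and then 2079 and 2220.4 FPKM (0.20 ± 0.28 SE). The glycyl-tRNA synthetase Gars had a change of 0.27 ± 0.18 SE, the pyruvate kinase Pkm of 0.17 ± 0.26 SE, the ATP synthase subunit Atp5b of 0.18 ± 0.20 SE, the immunoproteasome subunit Psmb8 of 0.00 ± 0.20 SE, the replication clamp Pcna of 0.23 ± 0.38 SE and Birc5 (survivin), which acts in mitosis, of -0.26 ± 0.19 SE. Psmb8 was the most level of them, at 1223 and 1239 FPKM and then 1209 and 1259.5 FPKM.

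Of 17 integrated stress response genes 1 was called higher, Aldh18a1, with a median of the list of 0.45. At an unadjusted p below 0.05 stood 9 higher and 1 lower, and the fit of the 4 libraries alone called 8 higher and 1 lower. Over all tested genes 22.3% stood at that unadjusted p, and that fit called 7.64% higher and 8.88% lower. Of 19 survival and death genes 1 was called higher, Gadd45b, a stress-induced regulator of MAP kinases, from 40.1 and 25.2 to 242 and 74.7 FPKM (2.05 ± 0.26 SE, limma adjusted p = 0.0196, and 0.0752 without RP 0 h replicate 1). Limma called 0 of 17 folding chaperones, all 17 with a positive change and 11 at an unadjusted p below 0.05, and 0 of 20 ER chaperones, 7 of them at that p. Hsp90ab1, an abundant cytosolic chaperone, had 473 and 779.7 and then 954 and 1169 FPKM (0.80 ± 0.24 SE, limma adjusted p = 0.126), and Calr, a chaperone of the ER, had 1264 and 838 and then 1389 and 846 FPKM (0.07 ± 0.20 SE). The groups of Hsp90ab1 did not overlap and those of Calr did. Among 10 cytotoxic granule genes limma called 0, with 2 at an unadjusted p below 0.05, and the protease Gzmb had 3826 and 1455 and then 9347 and 2803 FPKM (1.12 ± 0.29 SE, limma adjusted p = 0.0934). Gzmb was higher in replicate 1 at both times, and its groups overlapped.

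Limma also called 0 of 20 T cell receptor signalling, 19 interferon response, 18 actin and cytoskeleton, 14 iron and selenium, 20 nucleotide and one-carbon and 25 mitochondrial ribosomal protein genes, with 3, 3, 3, 5, 5 and 2 at an unadjusted p below 0.05, against 22.3% of all tested genes. Their most abundant members in that order were Cd3d (-0.14 ± 0.21 SE), a chain of the receptor complex, the interferon-induced GTPase Igtp (0.36 ± 0.19 SE), the actin-binding peptide Tmsb4x (-0.18 ± 0.53 SE), the ferritin chain Fth1 (0.65 ± 0.18 SE), the purine enzyme Paics (0.32 ± 0.16 SE) and Mrpl52 (0.68 ± 0.20 SE). Tmsb4x had 94444 and 99860.2 FPKM at rest and then 86618 and 84353 FPKM.

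Of 24 genes of cholesterol and fatty acid synthesis 11 were called higher, with 24 positive changes and a median of 0.99. Cyp51, which demethylates lanosterol, went from 30.8 and 45.1 to 139 and 214 FPKM (2.18 ± 0.28 SE, limma adjusted p = 0.0196). Msmo1, a later oxidase of the pathway, went from 24.9 and 28.2 to 90.01 and 154 FPKM (2.11 ± 0.25 SE, limma adjusted p = 0.0153). In both genes replicate 2 was the higher one at 1 h, and the median change of the list was 1.05 in pair 1 and 1.01 in pair 2. Insig1, the sensor that holds SREBP back when sterol is plentiful and is itself an SREBP target, went from 28.8 and 18.03 to 105 and 67.8 FPKM (1.85 ± 0.14 SE, limma adjusted p = 0.003). Hsd17b7, another enzyme of sterol synthesis, went from 5.72 and 5.01 to 22.2 and 14.3 FPKM (1.57 ± 0.19 SE).

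Hmgcs1 (1.83 ± 0.31 SE), Sqle (1.59 ± 0.28 SE), Mvd (1.16 ± 0.21 SE), Fdft1 (1.11 ± 0.19 SE) and the fatty acid synthase Fasn (1.02 ± 0.14 SE) were also called. Msmo1, Insig1 and Hsd17b7 kept the call in each fit without 1 library. Without RP 0 h replicate 1 the adjusted p of Cyp51, Hmgcs1, Sqle, Mvd, Fdft1 and Fasn ran from 0.0752 (Cyp51) to 0.197 (Mvd), and without the block none of the 24 was called. From 1 h to 4 h, where 19.4% of all genes were called lower, 8 of the 11 genes called higher at 1 h were called lower, and 19 of all 24. The 1 h libraries are shared between the comparisons.

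Of 27 splicing factors 2 were called higher, and the median of the list was 0.03. Srsf3 (chr17:29032628-29043373), a serine and arginine rich factor that binds RNA, went from 53.5 and 61.5 to 249 and 427 FPKM (2.49 ± 0.39 SE, limma adjusted p = 0.0339). It had 72.1 FPKM in replicate 1 after 0.5 h, 83.9 FPKM after 2 h and 41.5 and 18.9 FPKM in the replicates at 4 h, so that the single high time was 1 h. U2af1, the small subunit that reads the 3′ splice site, went from 10.8 and 11.3 to 49.6 and 34.4 FPKM (1.81 ± 0.18 SE, limma adjusted p = 0.00675). The call of U2af1 was kept without each library, and that of Srsf3 had an adjusted p of 0.12 without RP 0 h replicate 1.

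**Figure D3:**
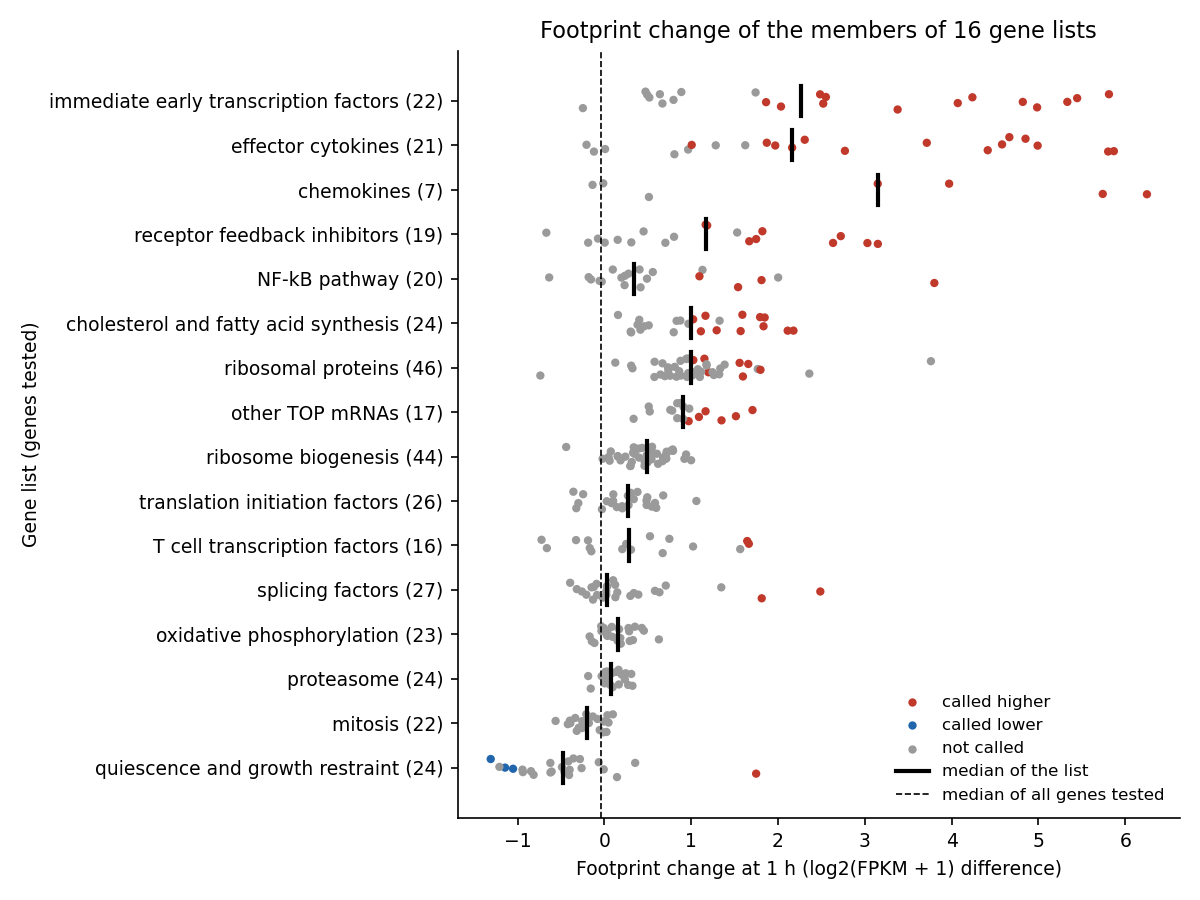
Footprint change at 1 h (difference in log2(FPKM + 1)) of each tested member of 16 gene lists, with members called higher in red, called lower in blue and not called in grey, a black bar at the median of the list and a dashed line at the median of all genes (-0.04). Vertical scatter within a list has no meaning. The medians run from -0.47 for quiescence genes to 3.15 for chemokines, and the ribosomal protein and cholesterol lists lie right of the line nearly in full.

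Falls were fewer. Of 24 genes of quiescence and growth restraint 3 were called lower (0.550% of all tested genes), and the median was -0.47. Both 1 h libraries lay below both 0 h libraries for 15 of the 24, against 25.3% of all tested genes. Klf2, which maintains resting and recirculating T cells, went from 221 and 386 to 89.9 and 192 FPKM (-1.14 ± 0.19 SE, limma adjusted p = 0.0379). Its relative Klf3 went from 61.9 and 106 to 20.03 and 50.99 FPKM (-1.31 ± 0.20 SE, limma adjusted p = 0.0299), and Tcf7 (TCF-1), the factor of naive and memory T cells, from 28.7 and 99.5 to 11.7 and 53.7 FPKM (-1.05 ± 0.17 SE). Klf2 and Klf3 were lower in both pairs without overlap, and Tcf7 overlapped because replicate 2 was the higher one throughout. Without RP 0 h replicate 1 their adjusted p was 0.15, 0.127 and 0.168, and without RP 1 h replicate 1 it was 0.303, 0.172 and 0.2. S1pr1, the receptor that guides T cells out of lymph nodes, stood at 199.8 and 138 and then at 84.3 and 105 FPKM (limma, adjusted p = 0.124). Dusp1, a MAP kinase phosphatase on the same list, was called higher, from 26.8 and 20.2 to 121 and 53.4 FPKM.

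The largest falls were spread over genes of different functions. Tifab, a regulator of TRAF signalling, went from 11.7 and 6.86 to 2.05 and 2.15 FPKM (-1.69 ± 0.23 SE, limma adjusted p = 0.0242). Ogt (chrX:101640060-101684351), the enzyme that attaches N-acetylglucosamine to proteins inside the cell, went from 57.99 and 40.9 to 12.5 and 17.7 FPKM (-1.64 ± 0.25 SE, limma adjusted p = 0.0295). Tnip3, a partner of A20, went from 5.75 and 8.08 to 1.03 and 2.50 FPKM (-1.55 ± 0.17 SE), and Arl4d, a small GTPase, from 16.9 and 23.04 to 5.99 and 6.46 FPKM (-1.52 ± 0.18 SE). Arhgef18, a guanine nucleotide exchange factor, fell from 42.8 and 25.2 to 11.1 and 11.2 FPKM and Abcg1, a sterol exporter, from 49.8 and 43.8 to 15.1 and 19.03 FPKM.

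The others among the 12 largest falls were Trmt1l (-1.41 ± 0.19 SE), Mettl7a1 (-1.38 ± 0.18 SE), Klhl42 (-1.37 ± 0.18 SE), Parp11 (-1.36 ± 0.21 SE) and the kinase Ikbke (-1.30 ± 0.17 SE), with Klf3. These 12 were taken from genes with a name whose 1 h libraries both lay below both 0 h libraries. E030030I06Rik, a gene model without a name, fell further, from 22.9 and 34.1 to 3.94 and 7.32 FPKM (-2.17 ± 0.19 SE, limma adjusted p = 0.00546). It was the 1 call of at least 4-fold lower and was called without each library in turn. Tnip3 and Arl4d were called without each library in turn. Without RP 0 h replicate 1 the other 10 had an adjusted p from 0.0648 (Ogt) to 0.146 (Abcg1), and without the block none of the 12 was called. Of 17 histone genes on the list 1 was called lower, Hist1h4i (-0.98 ± 0.15 SE). Hist1h3g (-1.07) and Hist1h2bl (-1.12), histone genes outside the list and named after their values were seen, were called lower too, and none of the 3 was called in any fit without 1 library. All are among many near-identical copies.

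To ask where footprints moved differently from newly made RNA, the change was set against that of RNA labelled with 4-thiouridine (4sU, 200 µM for 1 h), from 2 libraries at 0 h and 2 at 1 h that share none with the footprints. Of the 129 genes called higher in footprints that were tested in 4sU RNA, 109 were called higher there too (5.28% of all genes), and of the 51 called lower 31 were called lower (5.64%). Over 9130 genes the changes correlated at Pearson r = 0.755 and Spearman rho = 0.619, which describes these genes and not independent replicates. The interaction of library kind and time called 0 of 9130 genes with limma (0.00%), with 767 at an unadjusted p below 0.05 (8.40%). Ribosomal proteins had a median change of 0.56 in 4sU RNA and a median excess of the footprint change over it of 0.45, positive for 41 of 46. Other TOP mRNAs had an excess of 0.52, positive for 16 of 17, and cholesterol genes 0.41, positive for 20 of 24. For immediate early factors the excess was -0.43 and positive for 2 of 22, and for all genes the median was -0.02. Without a called gene, these medians are descriptions.

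Single genes show the range, none of them called in the interaction. Srsf3 changed by 0.40 in 4sU RNA and by 2.49 in footprints, an excess of 2.09 ± 0.49 SE (limma, adjusted p = 0.43), and Ogt by -0.13 and -1.64 (-1.51 ± 0.34 SE, adjusted p = 0.415). Eef1a1 changed by 0.47 and 1.71 (1.24 ± 0.42 SE, adjusted p = 0.465), and Tnf by 4.52 and 5.80 (1.28 ± 0.45 SE, adjusted p = 0.468). In the other direction Egr3 changed by 6.19 in 4sU RNA and 4.82 in footprints (-1.37 ± 0.73 SE, adjusted p = 0.643). Fos and Ifng, at 0.04 and 0.02, were nearly the same in both measures.

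**Figure D4:**
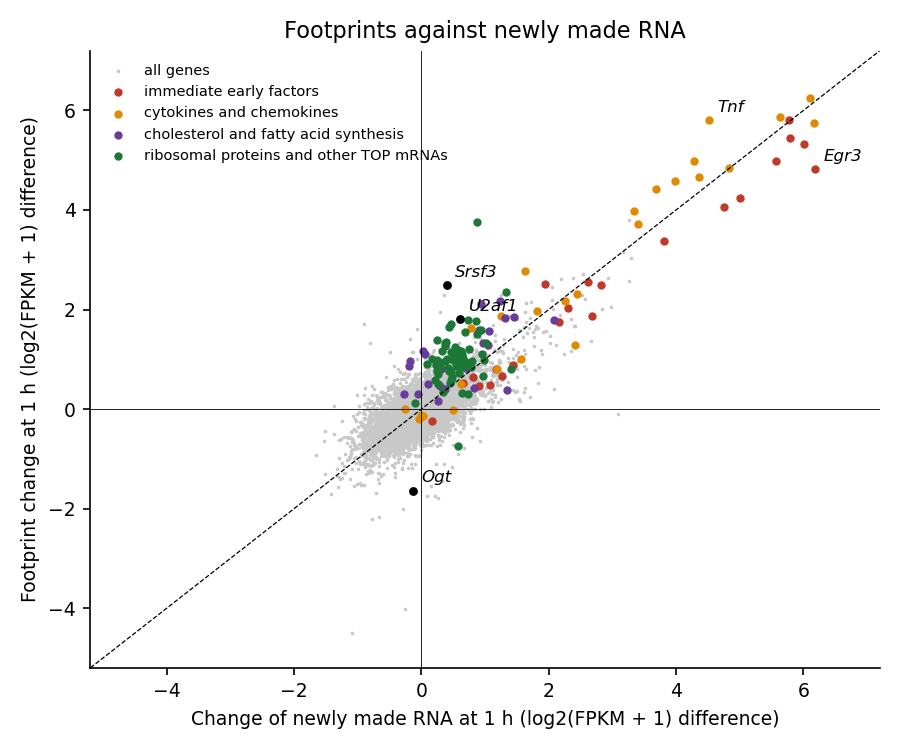
Footprint change at 1 h (vertical) against the change of newly made 4sU RNA (horizontal), both as differences in log2(FPKM + 1), 1 point per gene, with 4 groups of genes in colour, Srsf3, U2af1 and Ogt in black and a dashed line where the changes are equal. The ribosomal protein and other TOP points lie mostly above the line and the immediate early factors mostly below it, while no gene was called in the test of the difference.

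Against total RNA, which has 1 library at 1 h (replicate 2) and 2 at 0 h, the same kind of test called 0 of 8967 genes with limma (0.00%). It left 1178 at an unadjusted p below 0.05 (13.1%). With its sign, the footprint change lay above that of total RNA for 1007 of them and below it for 171. The fit takes the spread of that lone library from the groups with 2. The footprint change is the mean of both pairs, while total RNA at 1 h comes from replicate 2 alone. The median footprint change was 1.28 in pair 1 and 0.73 in pair 2 for ribosomal proteins, and 2.83 and 1.58 for cytokines. A gap between the replicates is therefore mixed into the excesses given here and cannot be told apart from one between footprints and RNA. The median excess over total RNA was 1.08 for ribosomal proteins, 27 of 46 at an unadjusted p below 0.05, and 1.10 for other TOP mRNAs, 13 of 17. It was 1.25 for cytokines and 0.80 for immediate early factors, against -0.01 for all genes and 0.23 for cholesterol genes. Among single genes Ccl3 had an excess of 3.42 ± 0.69 SE, Fos of 1.99 ± 0.49 SE, Eef1a1 of 1.87 ± 0.47 SE and Srsf3 of 2.16 ± 0.65 SE, while Cyp51 had 0.24 ± 0.80 SE.

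The other footprint libraries place 1 h within the time course. At 0.5 h, in replicate 1 alone and with no test, 125 of the 132 genes called higher already lay above their 0 h level, 82 of them 2-fold or more, and all 51 called lower lay below it, 30 of them 2-fold or more. The 0 h library of replicate 1 also served to call these genes, which by itself pushes the counts this way. The same share over all genes is not given, so the counts are descriptions. By 0.5 h Fos had reached 59.3 FPKM, Tnf 515, Cyp51 182 and Eef1a1 2673, while Nr4a3, at 1.36 FPKM, and Cd40lg, at 48.9, were not above their 0 h level. From 1 h to 4 h, 41 of the 132 were called higher (17.0% of all genes), 31 lower (19.4%) and 60 neither, and the 1 h libraries are shared between these comparisons. The 1 h peak of Fos had passed by 4 h, at 9.77 and 23.9 FPKM (limma, change from 1 h -3.86, adjusted p = 0.000682), as had that of Egr1 (40.1 and 69.5 FPKM, adjusted p = 0.00433).

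Ifng went on to 19196 and 11655 FPKM at 4 h (limma, adjusted p = 0.013), and Ccl3 to 1757 and 702 FPKM (adjusted p = 0.00253). Tnf had come down to 992 and 404 FPKM (limma, adjusted p = 0.0242). Msmo1, at 30.01 and 23.5 FPKM, was back near its 0 h level. Cyp51, at 58.4 and 40.8 FPKM, was back near its 0 h level in replicate 2 and still above it in replicate 1. Klf2 went further down, to 20.2 and 27.9 FPKM (limma, adjusted p = 0.00071), and S1pr1 to 2.45 and 3.73 FPKM.

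**Figure D5:**
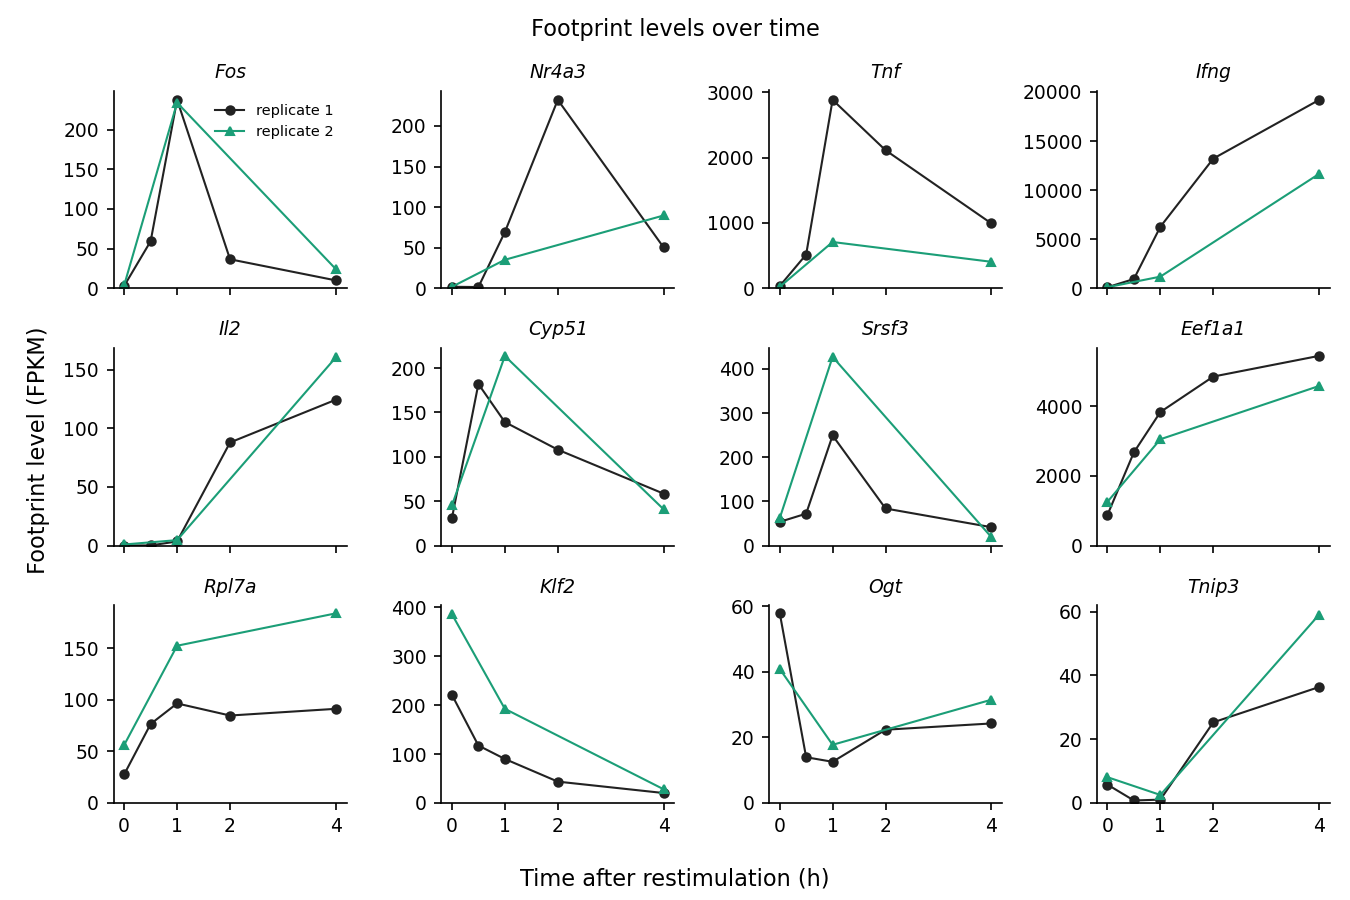
Footprint level (FPKM) of 12 genes at 0, 0.5, 1, 2 and 4 h in replicate 1 (circles) and at 0, 1 and 4 h in replicate 2 (triangles), each panel with its own vertical axis from 0. Fos and Srsf3 are highest at 1 h in both replicates, Ifng and Il2 at 4 h, and Tnip3 is lowest at 0.5 h in replicate 1.

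In the annotation the genes called higher were compact. Their median span in the genome was 10720 bp, against 23240 bp for the 9260 tested genes with an annotated span and 23020 bp for the genes called lower, and 36 of the 132 (27.3%) spanned less than 5000 bp, against 10.7% of all tested genes and 17.6% of those called lower. They had a median of 5 exons, against 9 for all genes and 7 for those called lower. The median coding length was 951, 1350 and 1032 bases in the same order. These are descriptions with no test.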

How the data were processed

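Footprints, newly transcribed 4sU RNA and total RNA were sequenced by the authors, who deposited FPKM with 2 decimals for 9420 genes. The submitters' processing notes name featureCounts from the Subread package (1.4.6-p3) and the build GRCm38. Aligner, annotation, gene lengths and strandedness: not given in the sources used here. Read depth was inferred from the steps of the lowest FPKM values (up to 8 reads, tolerance 0.1 read, 87.5% to 95.8% of values whole), so read counts are estimates.

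Values on the log2(FPKM + 1) scale were fitted with limma (3.58.1, R 4.3.3). Its prior variance followed the mean level, and p-values were adjusted by Benjamini-Hochberg over the 9268 genes with a mean of at least 1 FPKM. The fit held all 8 footprint libraries (0, 0.5, 1, 2 and 4 h) with time and replicate number as terms and 2 residual degrees of freedom, so the spread rests on few libraries. Replicate number was a term because the comparison was set up as paired by it. As a check, replicate 1 minus replicate 2 correlated across genes at r = 0.738 between 0 h and 1 h, 0.525 between 0 h and 4 h and 0.609 between 1 h and 4 h, so deviations from the group means were shared. The pairing thus follows the replicate numbers, not a statement in the labels. Differences from 4sU and total RNA were tested as interactions in 1 model over both kinds, with replicate number within kind. The pseudocount of 1 shrinks changes of genes with low values. On simulated data of the same design over 9268 genes, the test of 1 h against 0 h recovered 100 of 100 genes changed by 2 and 82 of 100 changed by 1 (log2), with 20 false calls. The simulation drew independent errors with the spread of this same fit, so it cannot show whether that spread is right for these libraries.

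Coordinates and gene structure are from GENCODE M21, which matched 9412 of the 9420 identifiers, and 7444 of the tested genes had a RefSeq promoter. Named genes are the 12 largest called changes in each direction without overlap between the times, the 2 largest called members of each of 37 lists (or the most abundant where none was called), and a panel of 25 genes. Unnamed gene models stayed out of the first part, and other called members of a list are given to complete it. Some named genes are not reported here. The comparison, lists and rules were chosen with earlier results of these data known. Alternatives were other fits, pseudocounts, filters and scalings, and leaving out each library.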

Additional observations from a re-analysis of the deposited data

How the results depend on the processing

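All 183 genes kept their direction in each alternative that tested them, but the number of calls followed the estimate of the spread. With no replicate block, limma called 13 genes higher and 0 lower. With the 4 libraries alone it called 1531 (708 higher, 823 lower) with the block and 3 (3 higher, 0 lower) with no block. Leaving out 1 library gave 65 to 267 calls, 58 to 166 higher and 7 to 101 lower. The count ran from 165 to 261 over the pseudocounts, filters, scaling and prior. The difference from 4sU RNA had 0 calls, 1 (E030030I06Rik) with a pseudocount of 5, and 0 to 2 without 1 library; that from total RNA had 0, 1 (Ccdc85b) with a pseudocount of 0.1, and 0 to 2 without 1 library. These genes are named after their values were seen. From 1 h to 4 h the block gave 3374 calls, no block 1264, and leaving out 1 library 1332 to 3971. The cause of these differences was not tested. Among genes that were not called, the change without 1 library ran from -0.00901 to 0.159 for Calr, -0.145 to 0.551 for Eif5a, -0.607 to 0.305 for Eomes, -0.0858 to 1.20 for Ncl, -0.312 to 0.762 for Pcna, -0.155 to 0.485 for Pkm and -0.0785 to 0.0845 for Psmb8. At 8.88 M reads, genes near 1 FPKM in 0 h replicate 2 rest on few reads.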

Other observations

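Of the 183 called genes, 96 were on none of the 37 lists, 49 higher and 47 lower. The genes named in this paragraph were chosen after their values were seen. Several encode surface proteins: Tnfsf9 (4-1BB ligand) went from 7.21 and 9.67 to 73.9 and 42.99 FPKM (2.62 ± 0.27 SE, limma adjusted p = 0.00866) and Cd274 (PD-L1) from 20.1 and 15.6 to 84.4 and 60.9 FPKM (1.96 ± 0.34 SE, adjusted p = 0.0446, and 0.0752 without RP 0 h replicate 1, 0.0785 without RP 0 h replicate 2 and 0.0817 without RP 1 h replicate 1). Others encode kinases or regulators of transcription: Plk3 went from 7.53 and 3.69 to 66.7 and 19.6 FPKM (2.56 ± 0.25 SE), Sik1 from 3.74 and 4.27 to 12.2 and 15.1 FPKM (1.54 ± 0.15 SE) and Skil, a restraint on TGF-beta signals, from 23.8 and 27.6 to 91.2 and 73.2 FPKM (1.64 ± 0.17 SE). Tnfsf9, Plk3, Sik1 and Skil were called without each library in turn. Il17a, the Th17 cytokine, stood at 0 and 0.24 and then at 3.90 and 2.11 FPKM (1.81 ± 0.28 SE, limma adjusted p = 0.0326, and 0.0752 without RP 0 h replicate 1 and 0.0837 without RP 1 h replicate 1).

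Of the 51 genes called lower at 1 h, 16 were called higher from 1 h to 4 h (17.0% of all genes). The 1 h libraries, by which these genes were chosen as low, are shared with that comparison. In replicate 1 Tnip3 had 0.76 FPKM after 0.5 h and 25.3 FPKM after 2 h, and the replicates at 4 h had 36.4 and 59.1 FPKM, above its 0 h level of 5.75 and 8.08 FPKM. Ikbke was at 47.2 and 31.8 FPKM at 4 h, Trmt1l at 15.1 and 18.1 FPKM and Klhl42 at 16.4 and 16.2 FPKM, each close to its level at 0 h. A further 19 were called lower again from 1 h to 4 h (19.4% of all genes), among them Arhgef18 (3.53 and 3.05 FPKM at 4 h) and Mettl7a1 (3.47 and 2.92 FPKM).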
